A study of Homo sapiens with 6 samples.

Results

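Kelly and BE2C are established human neuroblastoma cell lines with amplification of MYCN, and the genes described here are those that separate the lines. RNA counts of the Kelly library (1 library, unmodified cells) were set against all 5 BE2C libraries, namely BE2C with forced overexpression of LMO1 (2 libraries), BE2C with the matching vector control (2 libraries) and unmodified BE2C (1 library). A gene was taken as a line identity gene when Kelly lay at least 4-fold above the highest or below the lowest of the 5 BE2C libraries. By this rule 12081 of 25370 rows of the table were read, and 910 genes were found, 583 higher in Kelly and 327 lower. LMO1, LMO3 and TH lay above and MEG3 below the BE2C range. These marker genes came with the definition of the contrast and are read in the same libraries, so their place is no check of it. The series title asks how LMO1, a LIM-only transcriptional co-regulator, works together with MYCN, and the labels give neither the promoter of the vectors nor whether the modified cells were clones. With 1 Kelly library there is no replicate check, so the differences between the lines are described with no test.

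Neuroblastoma arises from cells of the sympathetic lineage of the neural crest. Such cells make catecholamines through the enzymes TH, DDC and DBH, store them in granules packed with granins and peptides, and are held in this state by transcription factors such as HAND2 and GATA3. Neuroblastoma lines also differ in a mesenchymal programme with high VIM, CD44 and AXL. LMO proteins carry no DNA-binding domain and bridge LDB1 with GATA and E-box factors.

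Levels are CPM, counts divided by library size, with library sizes scaled by TMM, a factor that corrects for differences in library makeup. Values of the BE2C libraries are printed in the order LMO1 1, LMO1 2, vector 1, vector 2 and parental. The gap is the log2 difference between Kelly and the nearest BE2C library on the CPM + 1 scale, and 2 on this scale is 4-fold. Total counts were 59512958 in Kelly, 48663459 in the parental library and 18737591 to 25070942 in the 4 modified libraries. The parental and the Kelly library are thus deeper than the others, and parental cells stood apart from the modified cells of the same line. The parental library lay at least 4-fold above the 4 modified libraries in 104 of 11418 genes (0.911%) and below them in 6 (0.0525%). Against the same 4 libraries Kelly was higher in 783 of 12174 genes (6.43%) and lower in 396 (3.25%). Set against parental BE2C alone, Kelly was higher in 731 genes and lower in 517. All 910 genes were among these, and the other 4 libraries brought 148 higher and 125 lower ones to within 4-fold of the BE2C range, while the remaining lower ones had under 5 CPM in Kelly and in a modified library and were not read.

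**Figure D1:**
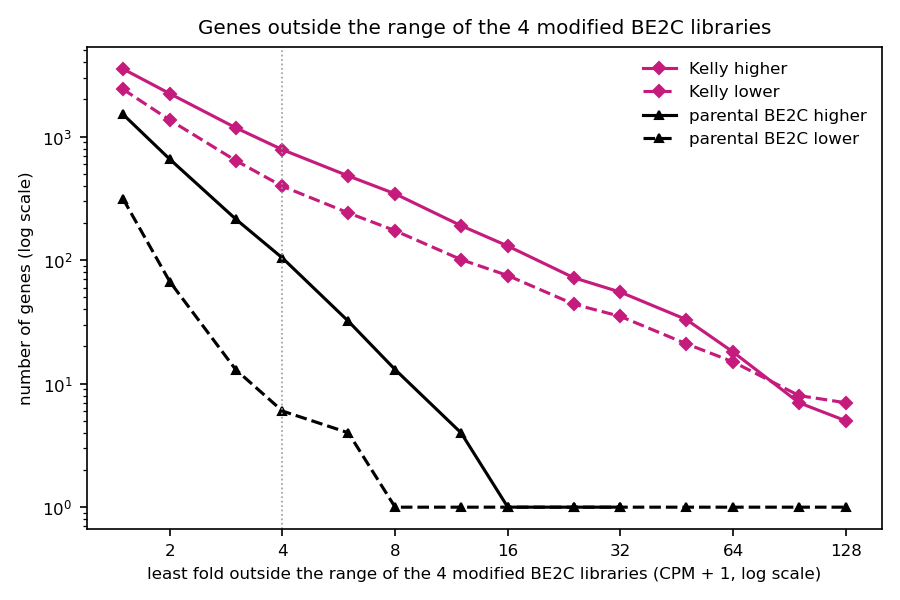
Number of genes (log axis) that lie outside the range of the 4 modified BE2C libraries by at least the fold on the horizontal axis (log axis, CPM + 1), for Kelly and for parental BE2C, each 1 library. At 4-fold, the dotted line, Kelly has 783 higher and 396 lower genes and parental BE2C 104 and 6.

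Of the genes read, 4.83% were called higher and 2.71% lower. Counted at any margin, 42% of the genes lay above and 36.1% below the whole BE2C range. A gene read only through the line in which it was high had to differ, so these shares support nothing by themselves. The higher genes had a median gap of 2.95, and the lower genes of -2.94. A gap of at least 16-fold was found for 115 higher and 68 lower genes, and one of at least 64-fold for 16 and 10. Reading required 5 CPM in Kelly or in all 5 BE2C libraries. Of the higher genes, 522 were read through the Kelly level alone and 61 also had 5 CPM in each BE2C library. Of the lower genes, 219 were read through BE2C alone and 108 had 5 CPM in Kelly too. DISP1 (gap 2.005) and SAPCD2 (-2.001) lay just inside the threshold, MFAP2 (1.998) and CDCA4 (-1.999) just outside it.

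LMO1 and its paralogue LMO3 were both high in Kelly. LMO1 was at 94.1 CPM in Kelly and 6.55, 5.85, 1.05, 0.926 and 1.93 CPM in BE2C. The forced LMO1 libraries were the highest of BE2C, and Kelly stood 3.66 above them on the log2 scale. LMO3 was at 25.1 CPM in Kelly and at most 0.314 CPM in BE2C. LMO2, which acts in blood stem cells, was at 12.7 CPM against 0.774 to 2.69 CPM and missed the 4-fold rule with a gap of 1.89. The bridging factor LDB1 (113 against 135 to 139.8 CPM), LMO4 (78.6 against 91.3 to 122) and the E protein TCF3 (109 against 91.8 to 108) were close between the lines. Of 22 genes of the LMO family and its partners, 3 were higher and 0 lower, the third being the LIM-homeobox gene LHX1 (8.76 against 0.0916 to 0.251 CPM). LMO1 and LMO3 came with the definition of the contrast. LHX1 was read through Kelly alone and so had to lie above. At any margin 11 genes of the list lay above and 8 below the BE2C range. The list's median log2 difference from the BE2C mean was 0.26, against 0.12 over all genes read.

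Several catecholamine enzymes were higher in Kelly, and the noradrenaline transporter was lower. TH, the rate-limiting enzyme, was at 405 CPM in Kelly and 5.24, 6.21, 1.7, 1.53 and 3.08 CPM in BE2C. DBH, which turns dopamine into noradrenaline, was at 873 CPM against 89.8, 78.9, 13.4, 15 and 35.4 CPM. MAOA, which degrades the amines, was at 280.2 CPM against 5.92, 6.56, 0.642, 0.926 and 2.6 CPM. In all 3 genes the LMO1 libraries were the highest of the modified libraries and Kelly was far above them. The vesicular transporter SLC18A2 was also higher (187 against 18.8 to 27.6 CPM), while DDC, the step between TH and DBH, was only slightly above the BE2C range (478 against 209 to 348 CPM). SLC6A2, the noradrenaline transporter that takes up the imaging agent MIBG, went the other way with 56.3 CPM in Kelly and 556, 549, 539, 531 and 489.9 CPM in BE2C. Of 15 genes read on this list, 4 were higher and 1 lower (median 0.09), and TH among the 4 came with the definition of the contrast.

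Granule cargo and its processing enzymes were lower in Kelly. Of 19 granin and peptide genes, 10 were at least 4-fold lower and 1 higher, with a median of -2.47. Over all genes read, 2.71% were lower and 4.83% higher. PCSK1, PCSK2, NPY and ADCYAP1 had under 5 CPM in Kelly, were read through BE2C alone and so had to lie below. SCG2, CHGB, VIP and GAL had at least 5 CPM in every library. At any margin 6 genes of the list lay above and 12 below the BE2C range. SCG2, a granin, was at 64.6 CPM in Kelly and 886, 884, 960.2, 987 and 800.3 CPM in BE2C, and CHGB at 282 against 1202 to 2058 CPM. CHGA, the granin used as a serum marker, was lower with a gap of -1.18 (1609.5 against 3651 to 4228 CPM) and so missed the rule. The prohormone convertases were nearly absent from the Kelly counts. PCSK1 had 1 count in Kelly (0.0168 CPM, exact Poisson 95% interval 0.000425 to 0.0935, counting error only) and 76.1, 77.6, 33.8, 38.2 and 48.9 CPM in BE2C. PCSK2 had 0 counts in Kelly (exact Poisson 95% interval 0 to 0.0619 CPM) and 23.1, 23.4, 21.5, 24.3 and 15.9 CPM in BE2C. The sympathetic peptides NPY (1.61 against 45.9 to 98.3 CPM), VIP (6.83 against 83.3 to 134), GAL (15.5 against 87.2 to 131) and ADCYAP1, which encodes PACAP (0.705 against 27.4 to 39), were all lower. The exception was CARTPT, the precursor of the CART peptide, at 21.9 against 0.0837 to 1.5 CPM. The enzymes CPE and PAM, which trim and amidate peptides, were not lower (59.5 against 5.92 to 28.2 CPM and 182 against 135 to 172 CPM).

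Transcription factors of the adrenergic state were present in both lines. The list of adrenergic factors summed to 5749 CPM in Kelly and 4501 to 5366 CPM in BE2C. Of the 9 noradrenergic markers all were read, and their summed level was 4062 CPM in Kelly and 5915 to 6768 CPM in BE2C. These markers include the granins CHGA and CHGB and the enzyme DBH, so their sum is not a level of the factors. HAND2 was at 709.8 against 193 to 228 CPM, and GATA3, at 170.2 CPM, lay between the modified libraries (61.8 to 73.2) and the parental one (267). SOX4, a SOX factor of developing neurons, was lower in Kelly (59.8 against 286, 288, 268, 267 and 274 CPM). SOX11, another neural SOX factor, was higher at 137 CPM against 12.7, 10.4, 1.51, 1.05 and 2.11 CPM, and so was the chromatin organiser SATB1 (71 against 7.28 to 15.2 CPM). MYCN was at 2066 CPM in Kelly and 1558 to 1666 CPM in BE2C. On the list of adrenergic factors 3 of 30 genes were higher and 2 lower, and the median of 0.37 became -0.10 against parental BE2C alone. The 3 include LMO1, which came with the definition of the contrast.

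Mesenchymal genes went both ways, with 3 higher and 4 lower of 25 read (median -0.38). IFI16, a nuclear DNA sensor, was at 0.117 CPM against 97.2, 98.7, 50.5, 54.8 and 126 CPM. The receptor kinase AXL (0.168 against 11.8 to 21.5 CPM), the neural crest factor SNAI2 (0.537 against 9.42 to 14) and the intermediate filament VIM (85.1 against 566 to 635) were also lower. TEAD4, a partner of YAP, was higher (20.1 against 0.724 to 1.23 CPM), as were SOX9 (21.8 against 0.845 to 2.99) and NOTCH3 (31.4 against 2.66 to 5.67).

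Genes of the S100, annexin and galectin families were lower in Kelly, 8 of 15 by at least 4-fold and 0 higher, with a median of -3.15. Over all genes read, 2.71% were lower. S100A6, S100A11, S100A10 and S100A4 had under 5 CPM in Kelly, were read through BE2C alone and so had to lie below. ANXA2 and LGALS1 had at least 5 CPM in every library. At any margin 2 genes of the list lay above and 12 below the BE2C range. S100 proteins are small calcium-binding proteins, and annexins bind membranes when calcium rises. S100A6 was at 0.269 CPM in Kelly and 628, 617, 318, 322 and 337 CPM in BE2C, S100A11 at 0.201 CPM against 185, 180.1, 182, 178 and 298 CPM. S100A10 had 2 counts in Kelly and 41.1 to 114 CPM in BE2C, and S100A4 was at 1.58 against 67.5 to 126 CPM. These 4 genes follow each other in the reference among the genes read. ANXA2, the partner of S100A10, was at 27.8 CPM against 501, 532, 457, 439 and 342 CPM, and LGALS1, galectin-1, at 10.4 against 135 to 340.5 CPM. ANXA5 and ANXA6 missed the rule with gaps of -0.54 and -0.54, and S100A13 lay inside the BE2C range (35.8 against 29.5 to 41 CPM).

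The genes with the largest gaps among those higher in Kelly were of several kinds. MAP7D2, a microtubule-associated protein, had the largest gap of 7.39, with 219 CPM in Kelly and 0.209, 0.132, 0.0916, 0.0805 and 0.314 CPM in BE2C. SCN1A, a voltage-gated sodium channel of neurons, was at 167 CPM against 0.105, 0.0880, 0.275, 0.322 and 0.314 CPM. GRIA2, the AMPA receptor subunit that limits calcium entry, was at 205 CPM against 1.15, 0.572, 0.229, 0.241 and 0.335 CPM. CNTNAP2, a neurexin-family adhesion protein of axons, was at 829 CPM against 9.11, 10.6, 1.65, 2.41 and 7.58 CPM. In these genes no BE2C library came near the Kelly value, and for GRIA2 and CNTNAP2 both LMO1 libraries were the highest of BE2C. The proteoglycans FMOD (345 against 0.402 to 1.44 CPM) and NCAN (168 against 0 to 0.377) and the laminin chain LAMA1 (119.5 against 0 to 0.167) were also among them. TKTL1, related to transketolase, was at 142 CPM with 6 counts in all BE2C libraries together, every one in the parental library. The group was completed by ARMCX2, ADAMTS20, GTSF1, DSG2 (a desmosomal cadherin), MAGEA1, POTEM and FAR2P1. The last 3 have close copies in the genome, so their reads may be split or shared.

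**Figure D2:**
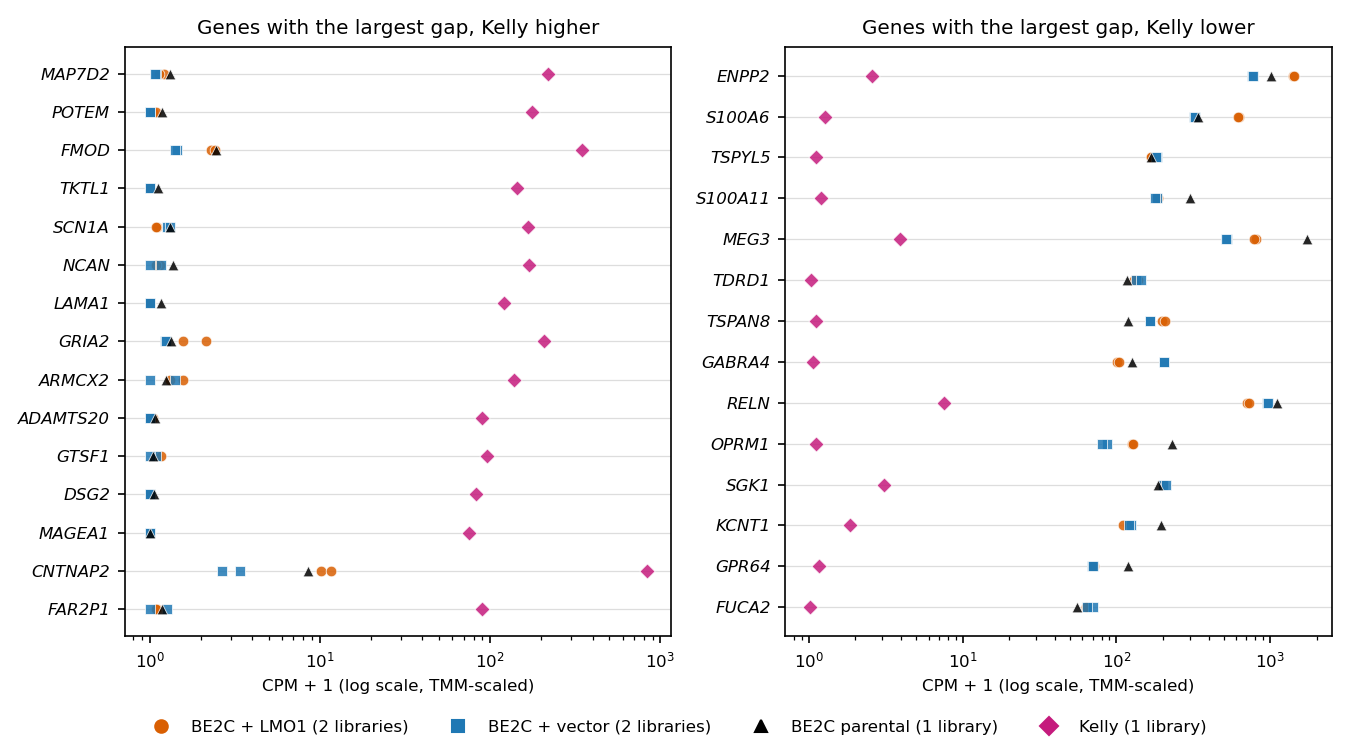
Level of genes among the 15 with the largest gap in each direction, as CPM + 1 on a log axis, with 1 point per library and colours for the 4 kinds of cells. Kelly is at 829 CPM for CNTNAP2 and 1.58 CPM for ENPP2, and the BE2C libraries are at 1.65 to 10.6 and 763 to 1437 CPM. The genes were picked for their wide gap.

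Among the lowest genes were secreted and surface proteins. ENPP2, autotaxin, which makes lysophosphatidic acid, had the largest gap of -8.21, with 1.58 CPM in Kelly and 1411, 1437, 763, 773 and 1008 CPM in BE2C. RELN, reelin, a secreted guide of migrating neurons, was at 6.56 CPM against 700.3, 726, 946, 960.1 and 1113 CPM. OPRM1, the mu opioid receptor, was at 0.117 CPM against 126, 127, 85.7, 79.5 and 230.2 CPM, and GABRA4, a GABA receptor subunit, at 0.0671 CPM against 100.4, 103, 204, 204 and 124 CPM. The sodium-activated potassium channel gene KCNT1 was at 0.839 CPM against 109 to 195 CPM. TSPYL5 (0.117 against 167 to 182 CPM), the germline gene TDRD1 (0.0336 against 116 to 144), the tetraspanin TSPAN8 (0.117 against 118 to 205), the kinase SGK1 (2.06 against 186 to 209), the adhesion receptor GPR64 (0.168 against 68.7 to 118) and the lysosomal fucosidase FUCA2 (0.0168 against 54.3 to 69.5) were also among them. TSPYL5, TDRD1, SGK1 and FUCA2 varied little within BE2C. ABCB1, the drug efflux pump known from multidrug resistance, was taken up after its values were seen and was at 1.76 CPM in Kelly and 259, 251, 205, 204 and 145 CPM in BE2C.

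Ion channels and receptors as families held genes of both directions. Of 20 glutamate, GABA and glycine receptor genes 6 were higher and 4 lower. The glycine receptor subunit GLRB was at 15.5 CPM in Kelly with 4 counts in all BE2C libraries. Of 21 sodium and calcium channel genes 4 were higher and 1 lower. The calcium channels traded places, CACNA1C of the L type being higher (57.8 against 0.443 to 1.1 CPM) and CACNA1H of the T type lower (0.369 against 54.7 to 82 CPM). Of 31 potassium channel genes 5 were higher, KCNH7 among them (9.99 against 0 to 0.322 CPM), and 2 lower. Among neuronal cytoskeleton and synapse genes 8 of 42 were higher and 2 lower. The heavy neurofilament NEFH was at 173 CPM against 1.89, 2.6, 2.61, 1.97 and 1.26 CPM, while the light neurofilament NEFL was at 63.7 against 496 to 726 CPM. SYN3, a synapsin, and NRXN3, a neurexin, were at 18.1 and 8.91 CPM in Kelly and at most 0.396 and 0.126 CPM in BE2C. The acetylcholine-making enzyme CHAT was at 19 against 0.367 to 1.2 CPM. P2RX3, an ATP-gated channel of sensory neurons, was at 94.8 CPM against 0.524, 0.396, 2.25, 3.18 and 1.13 CPM, while the serotonin receptor HTR2B (0.638 against 19 to 44 CPM) and the neuropeptide Y receptor NPY2R (1.46 against 27.1 to 36.2) were lower.

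Adhesion, matrix and guidance lists were read by the same 4-fold rule, under which higher calls also outnumbered lower ones over all genes. Axon guidance had 8 genes higher and 1 lower by the 4-fold rule among 41 read. By 4-fold, cadherins had 6 higher and 1 lower among 33, and collagens with laminins 5 and 1 among 24. At any margin, 13 cadherins lay above and 13 below the BE2C range, and 16 and 8 collagens and laminins did. The guidance ligands SLIT2 (25.8 against 0.126 to 0.596 CPM) and SLIT1 (62.5 against 2.61 to 6.53), the semaphorin co-receptor NRP2 (127.9 against 8.17 to 13.8) and the ephrin receptor EPHB3 (75.4 against 4.81 to 7.4) were higher. So were the giant cadherins DCHS1 (115 against 2.62 to 5.25 CPM) and FAT1 (68 against 1.41 to 2.91), with PCDH19 (84.4 against 0 to 3.81) and CDH13 (63.3 against 0.241 to 2.72). The collagen chains COL6A3 and COL1A1 were at 191 CPM against 5.71, 5.68, 9.16, 7.61 and 19.4 CPM and at 57.9 CPM against 1.94, 2.64, 1.92, 1.25 and 7.6 CPM, the parental library being the highest of BE2C in both. DCN, the proteoglycan decorin, was lower, at 0.201 CPM against 37, 34, 18.8, 20.9 and 102 CPM. Of 14 integrins read, 2 were higher and 0 lower by 4-fold, and 5 lay above and 5 below the BE2C range at any margin. Their median was -0.15, and the integrin list summed to 780 CPM in Kelly and 997 to 1150 CPM in BE2C. ITGA5, the fibronectin receptor chain, was at 100 CPM against 5.39, 5.46, 1.01, 1.13 and 3.79 CPM, and the platelet integrin chain ITGA2B at 15.9 against 0.774 to 2.09 CPM. Of 26 lysyl oxidase and matrix protease genes read, 3 were higher and 2 lower by 4-fold. At any margin 8 lay above and 13 below the BE2C range (median -0.36). LOX (29.2 against 2.09 to 5 CPM), ADAMTS5 (7.4 against 0.0805 to 0.754) and the collagen lysyl hydroxylase PLOD2 (132 against 3.78 to 27.1) were higher. The protease inhibitor TIMP3 (13.7 against 60.5 to 77.4) and PLOD3 were lower. On the surface antigen list 4 of 23 genes were lower and 1 was higher. The cell adhesion molecules NRCAM (63 against 421 to 548 CPM) and MCAM (13.4 against 108 to 150.3) were lower and CADM3 was higher (11.8 against 0.0916 to 0.523).

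Signalling genes differed at several levels. In the WNT pathway 7 of 31 genes were higher and 3 lower. The secreted WNT agonist RSPO1 was at 52.7 against 0.321 to 0.785 CPM, the nuclear effector LEF1 at 11.5 against 0 to 0.176 CPM, the polarity gene PRICKLE2 at 54.9 against 0.684 to 3.17 CPM, and the receptor FZD1, lower, at 0.755 against 24 to 38.9 CPM. In the Notch pathway 4 of 17 genes were higher and 0 lower: the receptor NOTCH3 given above, the glycosyltransferase MFNG (28.1 against 0.321 to 1.26 CPM), and the effectors HEYL (14.2 against 0.523 to 1.85) and HES7 (5 against 0.0805 to 0.314). All 4 were read through Kelly alone. MFNG, HEYL and HES7 had under 5 CPM in every BE2C library and so had to lie above. At any margin 11 Notch genes lay above and 5 below the BE2C range. The ligand BMP7 was at 112 CPM against 0.838, 0.792, 0.0916, 0.0805 and 0.126 CPM, and BAMBI, a decoy receptor of the family, was lower at 6.31 against 56.9 to 99 CPM. Among receptor tyrosine kinases and ligands 7 of 40 were higher and 6 lower. GFRA1, the co-receptor for GDNF, was at 80.4 CPM against 1.2, 2.07, 0.871, 0.805 and 0.900 CPM, while its partner RET was at 143 against 547 to 877 CPM with a gap of -1.93. ALK, a receptor kinase often altered in neuroblastoma, was at 81 CPM against 43.3, 42.9, 37, 35.7 and 21.2 CPM. The growth factors FGF9 and FGF13 were higher (22.3 against 0 to 0.262 and 117 against 1.65 to 7.02 CPM). INSR, the insulin receptor, had 13 counts in Kelly and was at 75.9, 70.9, 57.7, 54 and 67.3 CPM in BE2C. Its relative IGF1R was at 172 CPM, inside the BE2C range of 171 to 565 CPM. The lysophosphatidic acid receptor LPAR2 was at 26 against 0.367 to 1.21 CPM, opposite in direction to ENPP2.

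**Figure D3:**
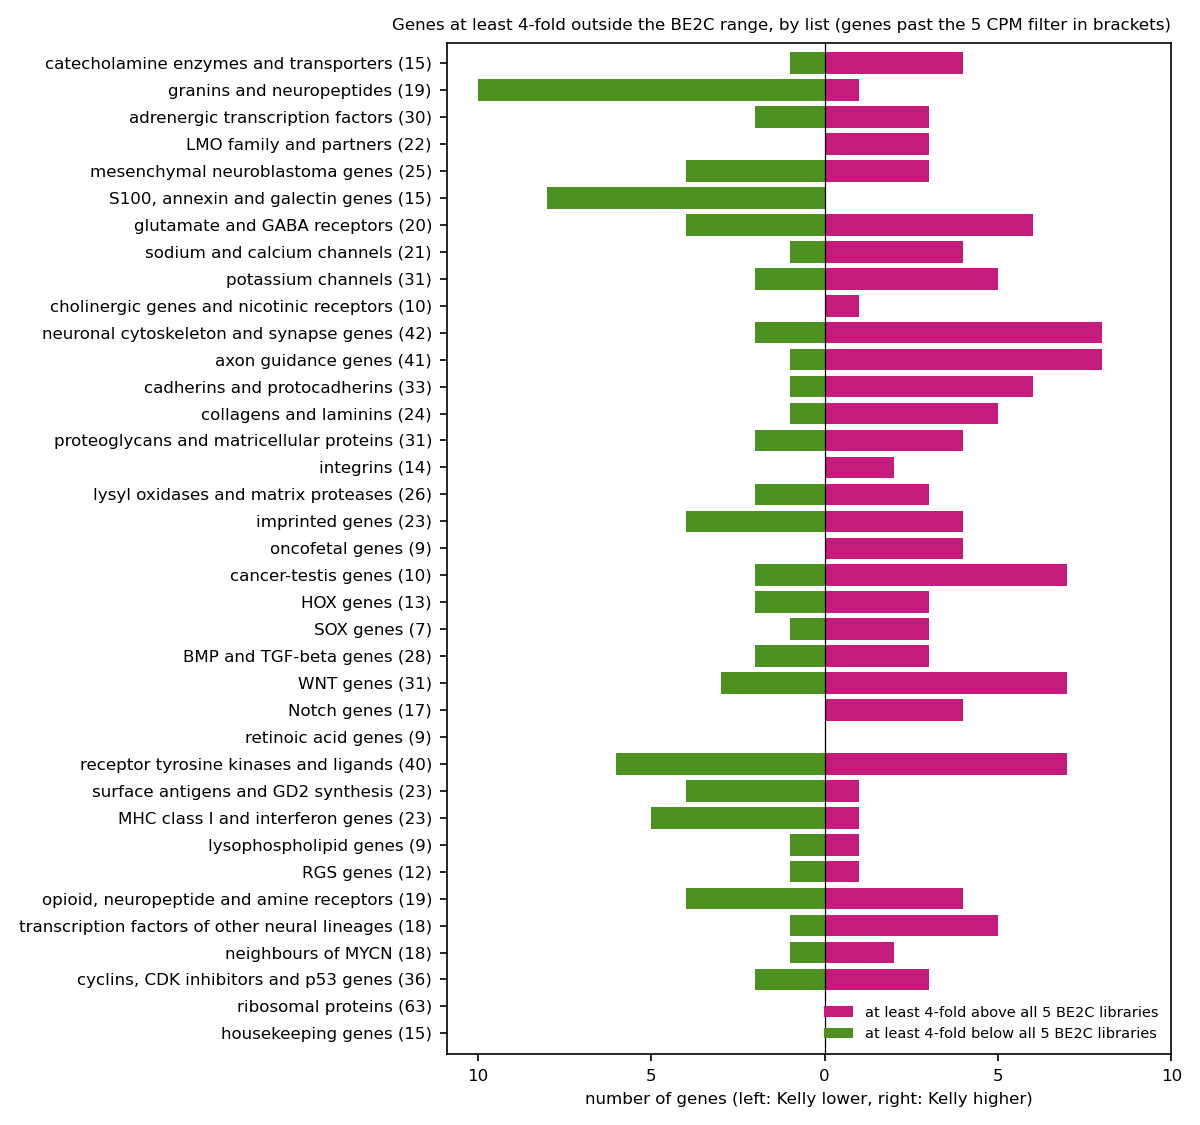
Number of genes at least 4-fold above (right) and below (left) all 5 BE2C libraries in Kelly for each of 37 gene lists, with the number of genes read in brackets. Granins and neuropeptides have 10 lower genes and the S100 list has 8, while oncofetal and Notch genes have 4 and 4 higher genes and none lower. Over all genes read, 4.83% were higher and 2.71% lower. Some of the list genes were read through a single line alone and so had to differ.

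Of 13 oncofetal genes 9 were read, and all 9 lay above the whole BE2C range, 4 of them by 4-fold, with a median of 2.31. SALL4 and TRIM71 had under 5 CPM in every BE2C library, were read through Kelly alone and so had to lie above. IGF2BP1, PRTG and LIN28B had at least 5 CPM in every library. IGF2BP1, an RNA-binding protein of the fetal period, was at 639.8 CPM against 59.6, 53.6, 54.1, 51.9 and 98.6 CPM, SALL4 at 39.5 against 1.15 to 2.38 CPM, TRIM71, a target of let-7, at 20.5 against 0.241 to 1.36 CPM and PRTG at 134 against 17 to 23.6 CPM. LIN28B, which blocks let-7 processing, was at 257 CPM against 76.4, 75.1, 79.6, 80.8 and 55.9 CPM, a gap of 1.66. Among 36 cancer-testis genes, 10 were read, with 7 higher and 2 lower by the 4-fold rule. MAGEA1 and TKTL1 were read through Kelly alone and TSPYL5 and TDRD1 through BE2C alone, so these had to differ. MAGEA1 had 4424 counts in Kelly (74.2 CPM) and 0 in the 5 BE2C libraries together, where up to 3 counts remain possible, and MAGE copies share sequence.

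Imprinted genes, transcribed from the copy of a single parent, had 4 genes higher and 4 lower by the 4-fold rule among 23 read. The RNAs of the maternally expressed cluster were low in Kelly. MEG3 was at 2.89 CPM (172 counts, exact Poisson 95% interval 2.47 to 3.35 CPM) against 806, 778, 519.5, 518 and 1737 CPM, MEG8 at 1.93 CPM against 21.3, 22.2, 19.3, 20.7 and 13.1 CPM and MEG9 at 1.19 CPM against 12.4, 13.9, 10.7, 12.2 and 21.4 CPM. The paternally expressed genes of the same cluster were not low. DLK1 was at 2200.3 CPM against 945, 917, 686, 652 and 472 CPM, and RTL1, just short of the rule with a gap of 1.99, at 199 CPM against 49.4, 46.4, 46.1, 44.2 and 36 CPM. RTL1 and an antisense RNA of the maternal copy overlap, so its reads are uncertain where strand was not used in counting. Elsewhere, the paternally expressed MEST (141 against 0.880 to 1.89 CPM), PEG3 (21.1 against 0 to 0.377) and NAP1L5 (25 against 0 to 0.188) were higher and NDN was lower (0.822 against 6.96 to 18.9). Of 13 HOX list genes read, 3 were higher and 2 lower. HOXD13, HOXD11 and HOXD10 were higher in Kelly (22.5, 12.7 and 19 CPM against at most 0.792, 0.995 and 1.89 CPM). HOXC10 and the neighbouring non-coding RNA HOTAIR were lower (0.201 against 10.9 to 27.4 CPM and 0.0336 against 18.6 to 34.4 CPM). Neural transcription factors included ZIC1 lower (0.0671 against 8.58 to 13.3 CPM), POU4F1 higher (24.9 against 1.37 to 1.8), and POU4F2 and SOX5 with 418 and 899 counts in Kelly and 0 in all BE2C libraries.

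**Figure D4:**
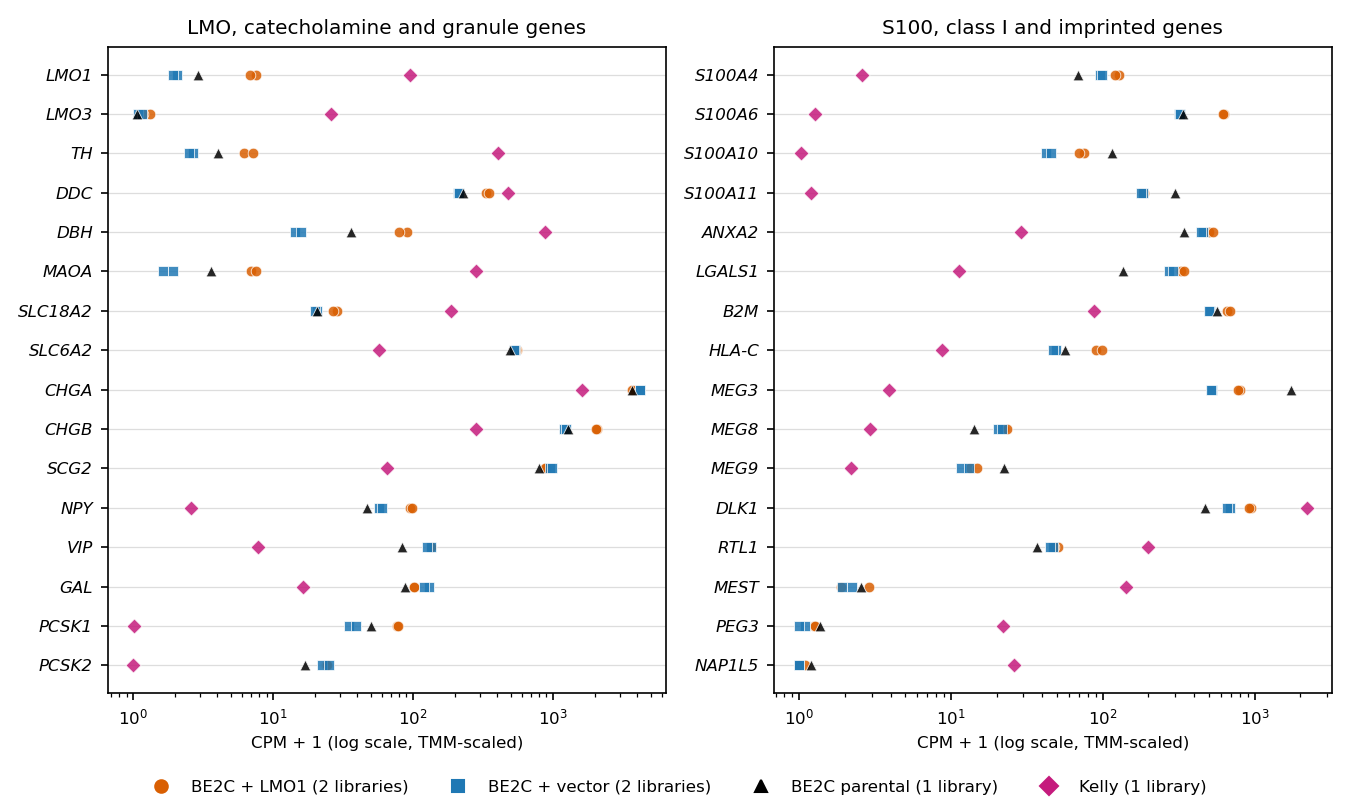
Level of LMO, catecholamine and granule genes (left) and of S100, class I and imprinted genes (right), as CPM + 1 on a log axis, with 1 point per library. TH, DBH and MAOA are far above BE2C in Kelly and NPY, VIP, PCSK1 and PCSK2 far below, while MEG3, MEG8 and MEG9 are below and DLK1 and RTL1 above.

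Class I antigen presentation genes were among those lower in Kelly. B2M, the constant chain of class I molecules, was at 86.6 CPM against 657, 691, 510.2, 500.3 and 565 CPM, and HLA-C was at 7.72 against 46.2 to 98.2 CPM. NLRC5, the activator of these genes, was at 1.24 against 10.7 to 13.2 CPM. HLA genes are alike in sequence and vary between people, so their counts are uncertain. Of 23 class I and interferon genes read, 5 were lower and 1, BST2, was higher (8.68 against 0.352 to 0.995 CPM). Growth regulators differed in kind. The G1 cyclin CCND2 was at 42.2 CPM against 1.41, 2.02, 0.550, 0.443 and 0.712 CPM and CCND1 at 104 CPM against 433, 434, 463, 459.6 and 540.3 CPM. The inhibitor gene CDKN2A was lower (3.54 against 47.8 to 53.6 CPM) and CDKN1C higher (43 against 2.55 to 7.84 CPM). NF1, which restrains RAS, was at 216 CPM against 26.7, 28.7, 30, 29.1 and 40.9 CPM. Among genes near MYCN, FAM49A was at 189 CPM against 2.41, 1.85, 1.28, 1.73 and 1.67 CPM and the calcium sensor VSNL1 at 11.2 against 0.229 to 0.885 CPM, while DDX1 (272 against 255 to 352) and NBAS (163 against 97.1 to 198) were inside the BE2C range and RHOB was lower (32.8 against 153 to 232). None of 63 ribosomal protein genes or 15 housekeeping genes met the 4-fold rule, nor any of 9 retinoic acid genes. Over all genes read, 4.83% were higher and 2.71% lower, so lists of 9 or 15 genes may hold none at these shares. At any margin 4 retinoic acid genes lay above and 1 below the BE2C range (median 0.60).

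Markers of other cell types were read in each library. The 8 haematopoietic markers summed to 0.806 CPM in Kelly and 0.0916 to 0.684 CPM in BE2C, with 2 and 3 of them at 0 counts. The 6 epithelial markers summed to 3.68 CPM against 4.63 to 7.7 CPM, and none of either list reached the filter level. The 8 Schwann and melanocytic markers summed to 34.3 against 16.3 to 21.9 CPM. The 9 fibroblast and endothelial markers summed to 71.7 against 92.3 to 209 CPM, with COL1A1 higher and DCN and ACTA2 lower in Kelly. Their part in the matrix values was not tested. In bulk RNA, fewer cells with a gene and less of its RNA per cell cannot be told apart.

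The identity genes also varied within BE2C. The median log2 range over the 5 BE2C libraries was 0.57 for the higher and 0.58 for the lower genes, against 0.47 for all genes read. The BE2C library nearest to Kelly was the parental one for 197 higher and 117 lower genes. Among the higher genes, LMO1 libraries 1 and 2 were nearest for 130 and 144 and vector libraries 1 and 2 for 54 and 35, while 23 genes had tied libraries. Among the lower genes these counts were 50 and 43 for LMO1 and 65 and 52 for vector, with 0 tied. The nearest library was not counted over all genes read, so these splits cannot be called particular to the identity genes. Some genes were near 0 in a whole line. Of the higher genes 54 had at most 3 counts in each BE2C library and 23 had none. Of the lower genes 34 had at most 3 counts in Kelly and 10 had none. In reference order, 13 runs of at least 3 neighbours among the genes read were all higher (42 genes) and 5 were all lower (19 genes). These included the desmosomal cadherins DSC3, DSC2 and DSG2, the HOXD genes above and MAGEA4, MAGEA10, CSAG1 and MAGEA12, all higher. The lower runs included the S100 genes and CRIP2 with CRIP1, C14orf80, KIAA0125 and LINC00221. Neighbours in families such as MAGEA share sequence.

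CpG content and short motifs were read in the promoters of the identity genes, as a description. RefSeq promoters (GRCh38.p14, 250 bases before to 50 after the 5′-most start) were matched for 410 higher and 233 lower genes. A CpG-rich promoter, with at least 0.6 of the CpG pairs predicted from its C and G content and at least 50% GC, was present for 57.6% of the higher and 69.1% of the lower genes, against 81.7% of all genes read and 46.7% of all promoters in the table. Among the genes near 0 in a line the shares were 46.9% of 32 promoters for those off in BE2C and 87% of 23 for those off in Kelly. The GATA motif AGATAA (either strand) was in 5.12% of the higher, 8.15% of the lower and 4.78% of all genes read. For the E-box CAGCTG the shares were 17.3%, 17.2% and 16.3%, and for the E-box CACGTG 9.02%, 6.01% and 10.5%. The TATA box TATAAA was in 7.07%, 7.3% and 5.15%, and the cAMP element TGACGTCA in 3.17%, 2.15% and 3.37%. Over all promoters in the table these shares were 10.5%, 17.7%, 7.41%, 12% and 1.97%. A match is a description of the letters and no evidence of binding.

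The 250 bases before the start are shown for 2 genes high in Kelly and 2 genes high in BE2C, as examples of promoters with more and with fewer CpG pairs. They read 5′ to 3′ on the gene's strand, with CpG pairs in capitals. MAP7D2 (chrX:20116908-20117157, minus strand) has 44 CpG pairs and SCN1A (chr2:166149162-166149411, minus strand) has 2, and both are high in Kelly. S100A6 (chr1:153535992-153536241, minus strand) has 24 and MEG3 (chr14:100825858-100826107, plus strand) has 13, and both are high in BE2C. MEG3 holds both the TATAAA and the TGACGTCA motif in this window.
MAP7D2: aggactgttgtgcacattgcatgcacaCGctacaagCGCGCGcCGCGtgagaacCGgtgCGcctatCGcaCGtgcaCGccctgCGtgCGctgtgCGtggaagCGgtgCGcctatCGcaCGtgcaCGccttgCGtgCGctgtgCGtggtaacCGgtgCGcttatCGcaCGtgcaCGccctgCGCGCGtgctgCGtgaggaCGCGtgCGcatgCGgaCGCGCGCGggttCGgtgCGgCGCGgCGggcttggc
SCN1A: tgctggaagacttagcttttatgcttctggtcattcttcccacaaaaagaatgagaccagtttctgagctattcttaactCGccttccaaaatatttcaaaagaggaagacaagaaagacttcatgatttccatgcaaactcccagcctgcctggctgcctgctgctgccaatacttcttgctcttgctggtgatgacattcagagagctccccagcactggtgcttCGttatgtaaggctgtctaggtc
S100A6: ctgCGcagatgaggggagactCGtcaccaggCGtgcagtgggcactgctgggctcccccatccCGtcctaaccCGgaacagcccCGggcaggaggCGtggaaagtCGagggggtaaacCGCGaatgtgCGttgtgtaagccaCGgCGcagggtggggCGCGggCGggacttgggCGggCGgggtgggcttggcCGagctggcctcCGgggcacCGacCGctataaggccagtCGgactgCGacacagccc
MEG3: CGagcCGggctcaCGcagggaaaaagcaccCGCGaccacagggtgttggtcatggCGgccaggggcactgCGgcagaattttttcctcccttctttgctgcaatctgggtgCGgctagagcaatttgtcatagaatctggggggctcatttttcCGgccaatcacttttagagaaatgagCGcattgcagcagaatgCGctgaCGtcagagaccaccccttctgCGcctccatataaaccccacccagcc

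Since LMO1 is high in Kelly, the named genes were also read in the only replicated contrast, forced LMO1 against vector within BE2C (2 libraries each). These libraries also set the BE2C range, so the values stand side by side and no overlap is counted. The labels leave unsaid whether replicate libraries stem from independent cultures. The p-values (edgeR quasi-likelihood test, Benjamini-Hochberg adjusted over 15480 genes, of which 31% were called) measure only how these libraries scatter, and that scatter may be technical. LMO1 itself rose by 2.65 on the log2 scale (SE 0.270, adjusted p = 3.46e-11). Several genes high in Kelly rose with forced LMO1: TH by 1.84 (SE 0.249, adjusted p = 5.67e-08), DBH by 2.57 (0.0803, 1.01e-29), MAOA by 2.98 (0.283, 4.67e-12), SOX11 by 3.19 (0.219, 1.37e-16) and CNTNAP2 by 2.27 (0.207, 1.33e-12). BMP7 rose by 3.17 (0.740, 0.000698), CDH13 by 2.87 (0.479, 4.47e-06) and ITGA5 by 2.34 (0.275, 1.76e-09). In each of these genes both LMO1 libraries were above both vector libraries and below Kelly. The parental library lay between the vector and the LMO1 libraries in each. It was near LMO1 in CDH13 (1.74 CPM against 2.72 and 1.76 in LMO1 and 0.367 and 0.241 in vector). In SOX11 it was near vector (2.11 CPM against 12.7 and 10.4 in LMO1 and 1.51 and 1.05 in vector). BMP7 had 16 and 18 counts in LMO1 and 2 and 2 in vector. What sets vector apart from parental cells was not tested.

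Of the further genes given here, some moved away from the Kelly level, some moved toward it and others were not called. ENPP2, far lower in Kelly, rose by 0.90 (SE 0.0242, adjusted p = 3.04e-32), S100A6 by 0.97 (0.0290, 2.12e-30), MEG3 by 0.62 (0.0271, 9.3e-24) and PCSK1 by 1.1 (0.0666, 1.41e-18). P2RX3, far higher in Kelly, had a log2 fold change of -2.56 (SE 0.408, adjusted p = 1.9e-06). GABRA4, lower in Kelly, fell with LMO1 (log2 -0.999, SE 0.0408, adjusted p = 6.2e-25). Genes with values that did not pass the test were S100A11 (0.03, adjusted p = 0.625), TDRD1 (-0.05, 0.46), SGK1 (-0.02, 0.686), SLC6A2 (0.05, 0.146), NEFH (-0.01, 0.987), IGF2BP1 (0.10, 0.266), CDKN2A (-0.02, 0.892) and MYCN (-0.05, 0.122), in the same edgeR fit. MYCN passed the test when LMO1 replicate 1 was left out (log2 -0.0856), and NEFH, CDKN2A, SGK1 and TDRD1 changed sign without 1 of the libraries. SCN1A, MAP7D2, LAMA1, TKTL1 and LMO3 had too few counts in the modified libraries to be tested.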

How the data were processed

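RNA of 6 libraries was measured as reads per gene. Per the labels' protocols, a stranded TruSeq kit turned total RNA into libraries read from both ends. The deposited table holds raw counts per gene symbol, with no normalization. TopHat2 2.0.6, HTSeq and hg19 are named in the submitters' processing notes. Annotation and strand setting are not given in the sources used here.

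Of 25370 rows, 2189 HIST and small RNA genes, 28 rows with date-like symbols and 109 rows for XIST, TSIX or Y-linked genes were left out after scaling. TMM factors came from edgeR 4.0.16 in R 4.3.3 over all 6 libraries. The LMO1 against vector fit used filterByExpr, with calls at an adjusted p under 0.05. The fit and the gap were tested on simulated data. A count of 0 was taken to allow up to 3 counts, a rounded limit that differs from the exact Poisson intervals printed for single genes.

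24139 symbols matched RefSeq, used for gene order and promoters. The named genes are 9 genes of interest, the 15 largest gaps per direction, the 4 largest gaps of each of 37 lists and 4 pairs at the threshold, and every other gene named was chosen after its values were seen. Some genes under this rule are not reported here. Members and lists were chosen with earlier results of these data known. Alternatives were scaling, added CPM, filters, left-out libraries, DESeq2 1.42.0 and a replicate block.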

Additional observations from a re-analysis of the deposited data

How the results depend on the processing

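The count of genes higher in Kelly ran from 482 (at least 10 CPM) to 783 (without the parental library) over all alternatives, against 583, and the count of lower genes from 270 to 517, against 327. Of these, only the 517 lower genes against parental BE2C alone differed by over 1.5 times. With each modified BE2C library left out in turn the counts were 588 to 601 higher and 330 to 338 lower. Scaling by total counts gave 584 and 324 genes, and DESeq2 size factors 577 and 328. No named gene changed the sign of its gap, but 219 values of such gaps under the alternatives moved by more than the spread between BE2C libraries and 1086 did not. Of the list values, 22 list counts moved by over 1.5 times and 23 list medians moved by more than that spread, while 200 and 83 did not. Alternatives for parental BE2C against the modified libraries were added after seeing the data. With 0.1 CPM added in place of 1, the parental library was lower in 13 genes in place of 6. List medians changed sign only against parental BE2C alone, for adrenergic factors (-0.10), proteoglycans (-0.0934), SOX genes (-0.39), opioid and amine receptors (-0.0768) and housekeeping genes (0.0063). The causes were not tested.

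For LMO1 against vector, edgeR called 4797 genes, DESeq2 2970, and edgeR without each replicate in turn 3493 to 3636, fits in which a lone library is assumed to vary like the other group. The labels' replicate numbers share only a number. Deviations of same-numbered libraries had a correlation of -0.02, and a fit with the replicate block called 4847 genes. Log2 fold changes of 15 genes, none called, changed sign when a library was left out, with ranges of -0.0701 to 0.0445 for BAMBI, -0.0651 to 0.0263 for CDKN2A, -0.0856 to 0.3018 for DISP1, -0.1357 to 0.0039 for FUCA2, -0.0341 to 0.0947 for GPR176. For the next genes they were -0.0124 to 1.0931 for LPAR2, -0.2843 to 0.8123 for MEST, -0.2685 to 0.1998 for NEFH, -0.0553 to 0.1142 for PCSK2, -0.0559 to 0.0067 for SGK1, and for the last -0.0484 to 0.1040 for SNAI2, -0.7158 to 0.3252 for SOX9, -0.0992 to 0.0052 for TDRD1, -0.7234 to 1.1988 for VSNL1, -0.1254 to 0.1852 for ZIC1. MYCN, not called, passed without LMO1 replicate 1 (-0.0856) and with no filter on low counts (-0.0522). Over 111 named genes tested, 61 values lost and 16 gained a call under an alternative. Depth limits genes near 0, since 3 counts are worth more CPM in the shallower modified libraries than in Kelly.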

Other observations

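PLCG2, a phospholipase of immune cell signalling, set the modified libraries apart from the other 2 libraries rather than Kelly from BE2C. It had 107701, 122684, 103451, 122224 and 70 counts in the LMO1, vector and parental BE2C libraries, in the order used above, and 44 counts in Kelly. As CPM these were 5639.8, 5400.4, 4740.4, 4919 and 1.47 in BE2C and 0.738 in Kelly. It was high in all 4 modified libraries and near 0 in both unmodified lines, and it was the only gene more than 8-fold below the modified range in parental cells. The cause was not tested.

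Some genes joined Kelly with parental BE2C and were therefore no identity genes. IGF2, a fetal growth factor, was at 228 CPM in Kelly, 78.3 CPM in parental BE2C and 4.66, 4.23, 3.94 and 3.86 CPM in the modified libraries. ARID1A, a chromatin remodelling subunit, was at 174 CPM in Kelly, 173 CPM in parental BE2C and 36, 34.2, 40.9 and 44.2 CPM in the modified libraries. ZFHX3, a transcription factor, was at 134, 166 and 39, 32.8, 35.6 and 37 CPM. The Kelly and parental libraries are also the 2 deepest, and whether handling of the libraries plays a part was not tested. These genes and PLCG2 were chosen after their values were seen.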
